A study of Mus musculus with 16 samples.

Results

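Primary hippocampal neurons that received lipoproteins of human apoE4 were compared with neurons that received apoE-free control medium, with 4 RNA-sequencing libraries in each group, 8 of the 16 libraries of the series. The comparison takes in every gene, and 17038 of the 48397 gene symbols in the count tables passed a filter on low counts and were tested. The neurons came from newborn wild-type CD1 mice, so they carry the mouse *Apoe* gene in all groups. AraC, which stops dividing cells, was added at 3 days in vitro (DIV), 10-fold concentrated conditioned medium was given at 10 and 13 DIV, and RNA was taken at 17 DIV. For the apoE4 group the medium was conditioned by immortalized astrocytes of mice homozygous for human apoE4 in place of mouse apoE. For the control group it was conditioned by immortalized astrocytes of Apoe-/- mice. Both other groups, apoE2 and apoE3, received medium of astrocytes of the matching human isoform, with 4 libraries each, and serve here to test whether a difference was larger with apoE4 than with another isoform. They also enter the estimate of the spread between cultures in the comparison with the control. Each medium came from its own immortalized astrocyte line, so the isoform and other differences between the lines cannot be told apart. The libraries of a group came from separate cultures, and p-values measure the spread between those cultures, except in the block fit described below.

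ApoE is the main lipoprotein of the brain. Astrocytes secrete it in lipid particles that neurons take up through receptors of the LDL receptor family, and the human isoforms differ in receptor and lipid binding. The human *APOE4* allele is the strongest common genetic risk factor for late-onset Alzheimer disease. Neurons that mature leave the cell cycle, and microRNAs of the let-7 family accumulate in them, pairing with sites in the 3′ untranslated regions (3′UTRs) of transcripts that are typical of embryonic cells.

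The reads counted on genes ranged from 15720376 to 32455651 in the apoE4 libraries and from 18569593 to 28482361 in the control libraries. Reads outside annotated genes made up 12.1 to 23.5% of all reads with apoE4 and 13.8 to 17.4% in the control, and 3 of the 4 apoE4 libraries lay above all control libraries. *Lars2*, a gene that contains a repeat derived from ribosomal RNA, received between 0.359 and 12.2% of gene counts with apoE4 and between 3.89 and 8.36% in the control. The lowest value of both shares within the apoE4 group was in replicate 2. Libraries with the same replicate number deviated from their group means together. For that reason results are also given from a fit with the replicate number as a block, and a pair below means the apoE4 and the control library of one number. The p-values of that fit measure only the spread left once the replicate number is taken into account, over all groups. Levels are given as CPM, the counts scaled to a common library size with TMM factors, and a change is a log2 fold change (log2FC) of apoE4 over control with its standard error (SE) unless stated otherwise.

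The neuronal identity of the cultures was examined first. The summed level of 10 neuron markers lay between 4089 and 8088 CPM with apoE4 and between 4971 and 8410 CPM in the control, and none of these markers was at 0 in either group. *Map2*, a microtubule protein of dendrites, was at 2021 ± 373 CPM (SD, n = 4) in the control and 2010.2 ± 529 CPM with apoE4. The 10 astrocyte markers summed to 1576 to 5399 CPM with apoE4 and to 1416 to 3186 CPM in the control, so that glial RNA was present in every library of both groups. The medians were 3572 and 2315 CPM and the ranges overlapped. In bulk RNA, fewer cells of a type and less RNA per cell cannot be told apart. Mouse *Apoe* itself was at 951 ± 576 CPM in the control and 1284 ± 759 CPM with apoE4, with a log2FC of 0.43 (SE 0.61) and an edgeR adjusted p of 1.00.

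At an adjusted p under 0.05 in edgeR's quasi-likelihood test, 33 genes were higher with apoE4 than in the control (0.194% of the tested genes) and 0 were lower (0% of them). At an unadjusted p under 0.05 there were 420 higher and 143 lower genes, the smallest edgeR adjusted p of a lower gene was 0.119, and DESeq2 called 88 higher and 3 lower genes. The log2FC of the 33 genes ran from 0.50 to 5.83 with a median of 1.38, and 23 of them were at least 2-fold higher. All 33 were higher in 4 of 4 pairs, which 14.9% of the tested genes were, and in all 33 the apoE4 libraries lay above every control library, which 1.34% of the tested genes did. The 33 were chosen on these same libraries, so both properties follow largely from the choice and are no further support. With the replicate block edgeR called 541 higher (3.18%) and 22 lower genes (0.129%), and all 33 were among the 541. That split was 385 higher and 106 lower when offsets for gene length and GC content were added to the block, and 828 higher and 134 lower with DESeq2 and the block. The study itself used a threshold of 2-fold with p under 0.05, and by it, on unadjusted p-values, 178 genes were higher (1.04%) and 18 lower (0.106%). With the block these were 391 (2.29%) and 35 (0.205%). The count of 33 depended on single libraries. It fell to 15, 16, 18 and 16 without control replicate 1, 2, 3 or 4, and to 17 and 15 without apoE4 replicate 1 or 4, and it rose to 63 without apoE4 replicate 2. A fit of only the apoE4 and control libraries without the block called 0 genes. Its lowest edgeR adjusted p was 0.0993, and it had 338 higher and 68 lower genes at an unadjusted p under 0.05. The same 8 libraries with the block gave 858 higher and 76 lower genes.

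**Figure D1:**
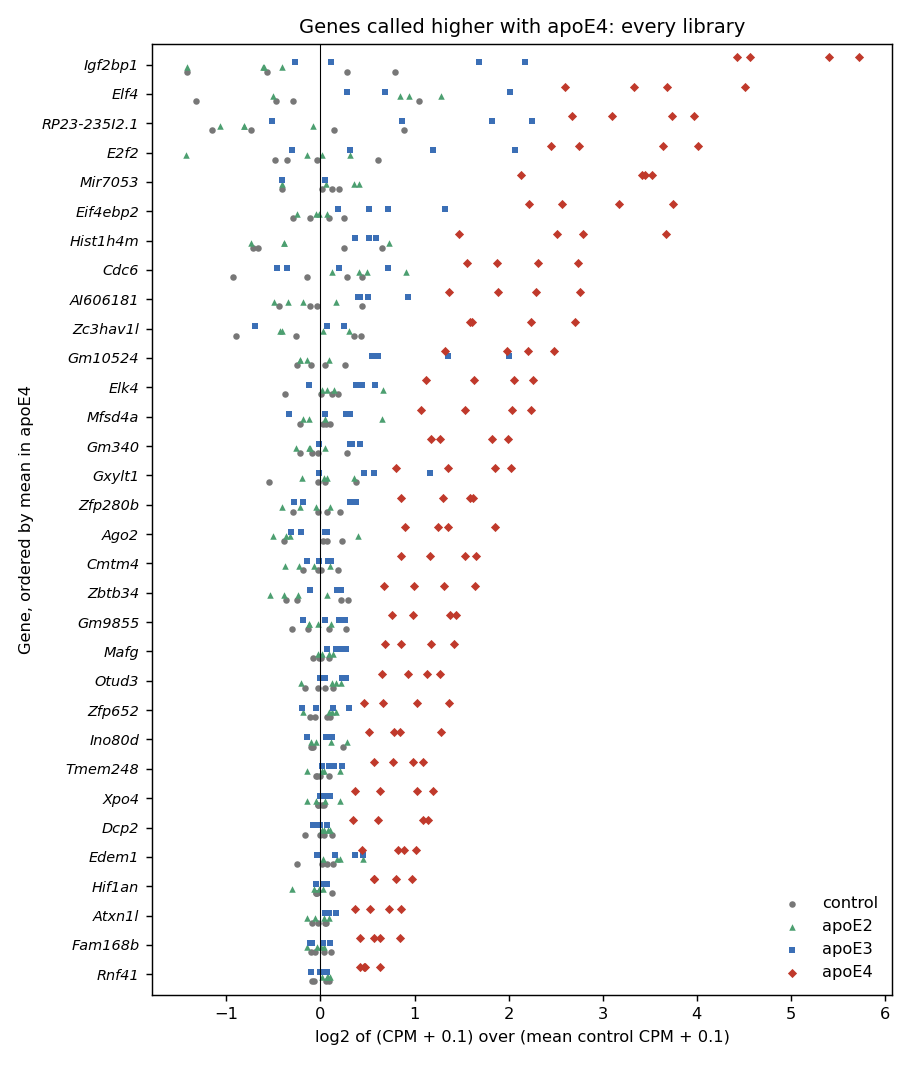
Levels of 32 of the 33 genes called higher with apoE4, 1 row a gene and 1 point a library in the control, apoE2, apoE3 and apoE4 groups (n = 4 each). The horizontal axis is the log2 ratio of CPM plus 0.1 to the mean control CPM plus 0.1, and the apoE4 points lie to the right of every control point in all 32 rows. The genes were chosen on these same libraries.

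The smallest p belonged to *Eif4ebp2* (chr10:61428491-61452661 of GRCm38, minus strand), which encodes a protein that binds the cap-binding factor eIF4E and holds back cap-dependent translation, and which is the main 4E-BP of the brain. Its levels were 7.54, 5.83, 5.16 and 6.75 CPM in control replicates 1 to 4 and 85.9, 29.8, 38.0 and 57.9 CPM in apoE4 replicates 1 to 4. The means were 6.32 ± 1.04 and 52.9 ± 24.9 CPM, with a log2FC of 3.06 (SE 0.31, edgeR adjusted p = 0.00162). Every apoE4 library was well above the control libraries, and with apoE3 and apoE2 the means were 10.7 ± 3.75 and 6.06 ± 0.561 CPM. Of 25 tested genes of cap-dependent translation initiation it was the only one called, also with the block. Their median log2FC was -0.02, beside 0.00 over all tested genes. *Eif4e* was at 89.2 ± 7.91 CPM in the control and 80.6 ± 6.38 CPM with apoE4, and *Mtor* at 149 ± 12.5 and 149 ± 22.9 CPM.

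The 33 genes included *Igf2bp1*, *Ago2*, *Dcp2* and *Zc3hav1l*, which act on RNA. *Igf2bp1* (chr11:95957163-96005940, minus strand), an RNA-binding protein of embryonic tissues that protects bound transcripts, showed the highest log2FC. It was at 0.227, 0.0804, 0 and 0.366 CPM in control replicates 1 to 4, from 14 reads in all, and at 14.1, 5.69, 6.25 and 11.3 CPM with apoE4, from 743 reads. The log2FC was 5.83 (SE 0.85, edgeR adjusted p = 0.00787). The gene was thus close to undetected in every control library and clearly present in every apoE4 library. Its paralogs were not called by either fit, *Igf2bp2* at 1.19 ± 0.689 and 1.83 ± 1.21 CPM and *Igf2bp3* at 3.94 ± 0.942 and 4.80 ± 0.453 CPM in control and apoE4.

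*Ago2* (chr15:73095844-73184935, minus strand), the Argonaute protein that cleaves targets of small RNAs, was abundant in both groups. Its control libraries held 142, 127, 124 and 92.8 CPM and its apoE4 libraries 442, 226, 312 and 289 CPM, with no overlap. The log2FC was 1.38 (SE 0.22, edgeR adjusted p = 0.0192). Among the other Argonautes, *Ago3* went from 37.7 ± 5.32 to 57.0 ± 9.37 CPM and was called with the block alone (edgeR adjusted p = 0.172, with the block 0.00084), and *Ago1* (109 ± 8.06 and 111 ± 10.8 CPM) and *Ago4* (9.63 ± 2.498 and 9.66 ± 1.76 CPM) were not called. *Dcp2*, the decapping enzyme that opens messenger RNAs to decay from the 5′ end, was at 57.6 ± 4.59 and 103 ± 26.4 CPM (log2FC 0.84, SE 0.14, edgeR adjusted p = 0.0256), while *Dcp1a* (26.6 ± 2.61 and 28.1 ± 1.68 CPM) was not called. Of 36 tested genes of Argonaute, GW182, microRNA processing and decapping, 2 were called and 6 with the block, all higher, beside 0.194% and 3.18% of all tested genes, and the median log2FC was 0.03. The block added *Ago3*, *Limd1*, *Tnrc6b* and *Cnot6*. *Tnrc6b*, a GW182 scaffold that links Argonaute to deadenylation, held 113, 109, 92.5 and 84.6 CPM in the control and 230.1, 149, 163 and 149.9 CPM with apoE4, without overlap. *Zc3hav1l*, a relative of the zinc finger antiviral protein, was at 2.03 ± 0.814 and 9.09 ± 3.53 CPM (log2FC 2.16, SE 0.37, edgeR adjusted p = 0.0282).

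Several of the 33 genes encode transcription factors. *Mafg*, a small MAF protein that dimerizes with NRF2 or BACH factors, lay between 81.1 and 90.8 CPM in the 4 control libraries and at 229, 138, 154 and 193 CPM with apoE4. Its log2FC was 1.06 (SE 0.13, edgeR adjusted p = 0.00298). Its relatives *Mafk* (13.4 ± 2.28 and 15.02 ± 2.22 CPM) and *Maff* (3.10 ± 1.15 and 4.43 ± 1.40 CPM) were not called. In the list of 20 NRF2, small MAF and antioxidant genes 1 was called and 4 with the block, the others being *Slc7a11*, *Bach1* and *Bach2*, beside 0.194% and 3.18% of all tested genes. The median log2FC of the list was 0.38. *Nqo1*, a standard NRF2 target, was at 3.60 ± 2.43 CPM in the control and 5.23 ± 3.70 CPM with apoE4.

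*Elk4*, an ETS factor that works with the serum response factor, was at 28.7, 20.3, 29.9 and 26.4 CPM in the control and at 127, 57.5, 81.8 and 110.1 CPM with apoE4 (log2FC 1.84, SE 0.24, edgeR adjusted p = 0.00480). *Mfsd4a*, a membrane transporter gene that overlaps *Elk4* by 9807 bases on the opposite strand, rose from 17.1 ± 1.61 to 59.4 ± 20.5 CPM. Whether the counting used the strand is not given in the sources used here, so reads from the shared stretch cannot be assigned to either gene with certainty. *Elf4*, an ETS factor known from lymphoid cells, had 0, 0.0804, 0.105 and 0.419 CPM in the control (13 reads) and 3.11, 1.42, 2.43 and 5.64 CPM with apoE4 (251 reads), with a log2FC of 4.40 (SE 0.82, edgeR adjusted p = 0.0437). Both groups of libraries were apart for these 3 genes. Of 18 tested ETS factors, 2 were called and 4 with the block, which added *Ets1* and *Etv6* (0.194% and 3.18% of all tested genes), at a median log2FC of 0.23.

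*Zfp280b*, *Zfp652* and *Zbtb34*, zinc finger proteins, and *Atxn1l*, a partner of the repressor Capicua, were also called. Their means were 14.1 ± 2.02, 53.9 ± 3.73, 6.998 ± 1.61 and 62.2 ± 2.99 CPM in the control and 36.7 ± 8.34, 102 ± 28.6, 16.2 ± 4.69 and 96.2 ± 14.2 CPM with apoE4. *Zfp652* shares 19.97% of its exon bases with other genes. *Hif1an*, the hydroxylase that inhibits HIF-1, was at 34.9, 31.0, 31.0 and 30.9 CPM in the control and at 62.8, 47.4, 47.6 and 55.8 CPM with apoE4 (log2FC 0.74, SE 0.10, edgeR adjusted p = 0.00753). *Ino80d*, a subunit of the INO80 chromatin remodeler, was at 35.4 ± 4.30 and 65.3 ± 15.01 CPM.

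Cell cycle genes among the 33 had very low control levels. *E2f2*, an activating E2F factor, was at 0.272, 0.241, 0.628 and 0.366 CPM in the control (37 reads) and at 7.58, 2.51, 3.10 and 5.85 CPM with apoE4 (371 reads), with a log2FC of 3.62 (SE 0.63, edgeR adjusted p = 0.0283). *Cdc6*, which loads the replicative helicase on origins, had 29 reads in the control and 145 with apoE4, or 0.320 ± 0.155 and 1.82 ± 0.689 CPM (log2FC 2.497, SE 0.44, edgeR adjusted p = 0.0349). *Hist1h4m*, a histone H4 gene, had 12 and 119 reads, and as H4 genes are near-identical its counts are uncertain. No library of the control reached the lowest apoE4 library in any of these 3 genes. At such control levels a gene passes the low-count filter largely through the apoE4 libraries and could hardly be called lower. The separation is therefore no further support. *Usp44*, a deubiquitinase of the spindle checkpoint, was removed by the filter, with 0, 0, 0 and 1 reads in control replicates 1 to 4 and 22, 7, 19 and 45 reads in apoE4 replicates 1 to 4.

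Further cell cycle genes were called with the block. Of 27 E2F factors, pocket proteins and G1/S regulators, 1 was called and 4 with the block, namely *E2f2*, *Cdk6*, *E2f7* and *Mybl2*, beside 0.194% and 3.18% of all tested genes. All of these but *Cdk6* are factors that the study names for apoE4 on these same samples. *Cdk6*, a G1 kinase, held 5.00, 2.57, 3.17 and 6.44 CPM in the control and 24.5, 8.37, 11.1 and 21.0 CPM with apoE4 (edgeR adjusted p = 0.232, with the block 8.9e-06), so that the groups were apart although the fit without the block made no call. *E2f1*, at 7.97 ± 2.32 and 11.7 ± 3.05 CPM, and *Ccnd1*, at 115 ± 42.0 and 153 ± 60.1 CPM, were not called. Of 38 genes of mitosis and spindle, 0 were called and 9 with the block, beside 3.18% of all tested genes. Of the 38, 37 lay above 0, as did 8583 of all 17038 tested genes, and the median log2FC was 0.70, beside 0.57 with apoE3 and 0.31 with apoE2. *Cenpf* went from 4.29 ± 1.69 to 11.5 ± 4.38 CPM. Of 38 genes of DNA replication and repair, 1 was called (*Cdc6*) and 2 with the block (also *Rmi2*, from 6 to 83 reads), at a median log2FC of 0.21, while the helicase subunit *Mcm2* was at 7.70 ± 1.39 and 7.98 ± 2.21 CPM. The 10 markers of dividing progenitors summed to 293 to 1455 CPM in the control and 358 to 3008 CPM with apoE4. The largest member of this sum was *Vim*, a filament gene that astrocytes also express, at 146 to 1066 CPM in the control and 208 to 2449 CPM with apoE4. The proliferation markers *Mki67* (5.23 ± 1.92 and 8.401 ± 3.75 CPM) and *Top2a* (4.16 ± 2.43 and 6.63 ± 2.65 CPM) were low and were not called by either fit. The part of these other cells in the mitotic counts was not tested.

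Several of the 33 genes act in protein turnover and traffic. *Otud3*, a deubiquitinase, was at 9.19 ± 0.814 and 18.7 ± 3.33 CPM (log2FC 1.02, SE 0.15, edgeR adjusted p = 0.00787). *Rnf41*, a ubiquitin ligase of ErbB receptors, had the smallest change at a log2FC of 0.50 (SE 0.07, edgeR adjusted p = 0.00787), from 97.5 ± 6.11 to 138 ± 9.24 CPM, and its groups still did not overlap. *Edem1*, which sends misfolded glycoproteins to degradation, was at 25.1 ± 2.78 and 44.0 ± 7.03 CPM, *Xpo4*, a nuclear transport receptor, at 12.8 ± 0.256 and 23.0 ± 5.87 CPM, and *Gxylt1*, which extends sugars on Notch, at 8.50 ± 2.15 and 25.7 ± 9.01 CPM. *Cmtm4*, a membrane protein that stabilizes PD-L1, was high in absolute terms, with 125, 143, 163 and 139.9 CPM in the control and 451, 258, 320.2 and 414 CPM with apoE4 (log2FC 1.34, SE 0.16, edgeR adjusted p = 0.00298). *Tmem248* (52.9 ± 2.49 and 96.5 ± 15.1 CPM) and *Fam168b* (336 ± 22.2 and 518 ± 65.6 CPM), both membrane proteins, were also called.

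The remaining members have no established role. *Gm340* was at 8.81 ± 1.35 and 27.1 ± 7.54 CPM, *AI606181* at 2.71 ± 0.735 and 12.5 ± 5.04 CPM, and *RP23-235I2.1* at 0.748 ± 0.534 and 9.23 ± 3.63 CPM. *Gm9855*, a processed pseudogene, was at 4.60 ± 0.820 and 10.5 ± 2.28 CPM, and its reads may be shared with a parent gene. *Gm10524* (3.22 ± 0.506 and 13.7 ± 4.29 CPM) overlaps *Zfp236* on the opposite strand, itself at 49.0 ± 3.83 and 53.5 ± 3.70 CPM. *Mir7053*, a hairpin of 73 bases inside *Pold1*, had 3 reads in the control and 89 with apoE4, while *Pold1* was at 3.34 ± 0.915 and 3.81 ± 1.42 CPM.

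The next question was whether these genes differed between apoE4 and the other isoforms. These contrasts share the apoE4 libraries with the comparison above. Of the 33 genes, 20 were higher with apoE4 than with apoE3 and 30 than with apoE2 at an edgeR adjusted p under 0.05, where 0.135% and 0.229% of all tested genes were higher and 0.0117% and 0.0235% lower. The 20 were all among the 30, and *Cdc6*, *Edem1* and *Elf4* differed from neither. With the block, 32 and 33 of the 33 were higher, beside 1.07% and 2.61% of all tested genes. The count against apoE3 rested on single libraries, as 0 called genes differed from apoE3 without apoE3 replicate 1 or 2 and 2 without apoE4 replicate 4. The count against apoE2 fell to 12 without apoE2 replicate 1 and to 10 without apoE2 replicate 4. Against the control, the 33 genes had a median log2FC of 0.12 with apoE3 (range -1.07 to 1.93) and of -0.02 with apoE2 (range -1.08 to 1.19). Without the block none of them was called there, the lowest edgeR adjusted p being 0.385 with apoE3 and 1 with apoE2. With the block 5 were called higher with apoE3, where 7.95% of all tested genes were, and 0 with apoE2, where 1.17% were. The 5 were *Gxylt1*, *Gm10524*, *Elf4*, *RP23-235I2.1* and *Eif4ebp2*, with log2FC values of 0.59, 1.18, 1.92, 1.42 and 0.73 with apoE3 in that fit.

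The sizes of the direct differences varied between genes. For *Eif4ebp2* apoE4 exceeded apoE3 by a log2FC of 2.31 (SE 0.30, edgeR adjusted p = 0.0120) and apoE2 by 3.13 (SE 0.32, edgeR adjusted p = 0.00131). For *Ago2* these differences were 1.47 (SE 0.23) and 1.54 (SE 0.23), and for *Mafg* 0.88 (SE 0.13) and 1.01 (SE 0.13), each with an adjusted p under 0.05. *Igf2bp1* was at 0.547 ± 0.474 CPM with apoE3 and 0.0636 ± 0.0440 CPM with apoE2, and the difference of apoE4 from apoE3 of 4.16 (SE 0.77) just missed the threshold (edgeR adjusted p = 0.0503). *Gm10524* was at 7.82 ± 3.93 CPM with apoE3, between control and apoE4, and its difference of 0.81 (SE 0.31) did not pass (edgeR adjusted p = 0.945).

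**Figure D2:**
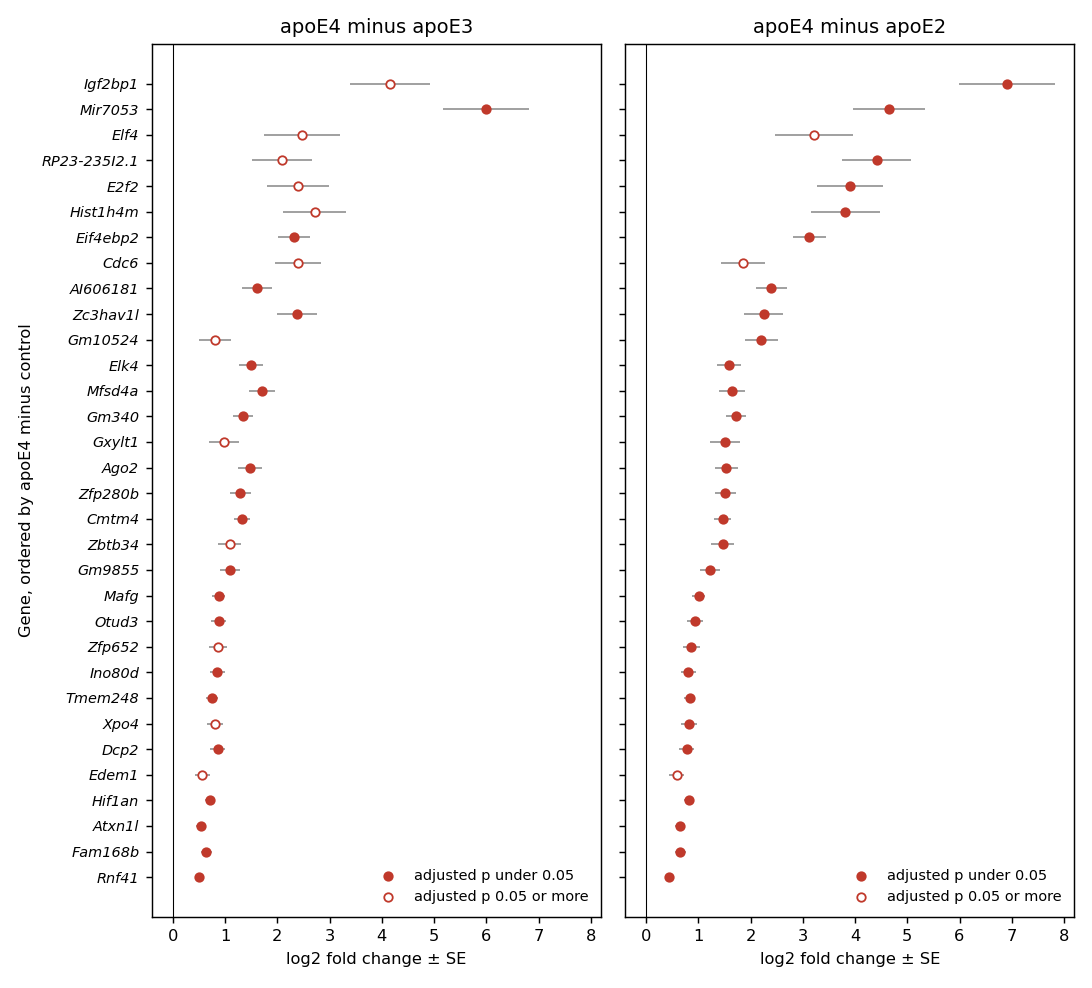
Difference of apoE4 from apoE3 (left) and from apoE2 (right) for 32 of the 33 genes, as log2 fold change with its SE from the fit over 16 libraries. Filled points mark an adjusted p under 0.05, which 20 of the genes drawn reached against apoE3 and 29 against apoE2, and all points lie to the right of 0.

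The apoE4 libraries differed among themselves in a regular way. All 33 genes were lowest in apoE4 replicate 2, as 27.7% of all tested genes were, and 25 were highest in replicate 1 and 7 in replicate 4. The median log2 ratio to the control mean over the 33 genes was 1.80, 0.86, 1.27 and 1.54 in apoE4 replicates 1 to 4. The share of reads outside annotated genes followed the same order in these libraries, at 23.5, 12.1, 19.7 and 22.6%. The apoE2 replicate 1 library had 21.9% of its reads outside genes and 15.02% of its gene counts on *Lars2*, and its median log2 ratio over the 33 genes was -0.08, with 6 of the 33 above all control libraries. The apoE3 replicate 1 library, at 19.9%, had a median of 0.15 and 16 of 33. The apoE4 replicate 2 library, at 12.1%, was below all control libraries in that share and had all 33 genes above every control library. The part of this share in the order of the apoE4 libraries was not tested.

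**Figure D3:**
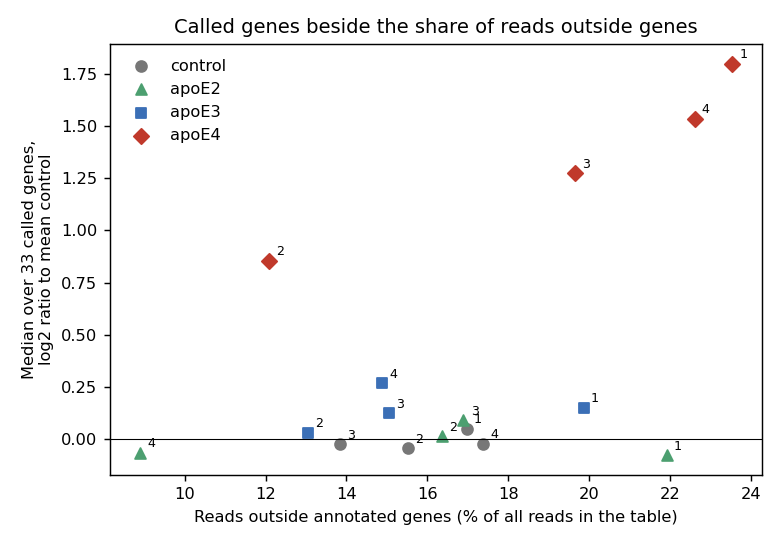
Median over the 33 called genes of the log2 ratio to the control mean (vertical axis) against the percentage of reads outside annotated genes (horizontal axis), 1 point a library, with its replicate number. The 4 apoE4 libraries lie at 0.86 to 1.80 and all other libraries at or under 0.27.

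The genes with the smallest p in the block fit, among those changed at least 2-fold and not called without it, were examined next. *AI506816*, a processed transcript, had the smallest p there and was at 3.77, 2.21, 3.03 and 7.17 CPM in the control and 36.4, 13.8, 18.1 and 37.7 CPM with apoE4 (edgeR adjusted p = 0.0888, with the block 3e-07). *Ptpn14*, a phosphatase that restrains YAP, was at 14.7, 4.42, 8.23 and 18.1 CPM in the control and 108, 31.1, 51.0 and 89.9 CPM with apoE4 (edgeR adjusted p = 0.237, with the block 8.9e-06). *Hipk2*, a nuclear kinase, was at 23.6, 11.1, 8.93 and 25.3 and at 118, 38.0, 52.4 and 81.6 CPM (edgeR adjusted p = 0.0900, with the block 9.44e-06). In these 3 genes the groups did not overlap. *Ahnak*, a giant scaffold protein, was at 50.7, 10.9, 30.5 and 149 CPM and at 229, 56.5, 134 and 451 CPM, overlapping as groups but higher in 4 of 4 pairs. Among the other genes at the head of that ranking, *Aff1* (13.8 ± 4.48 and 45.4 ± 19.97 CPM) and *Foxn3* (15.3 ± 3.75 and 31.8 ± 10.03 CPM) did not overlap, and *Sft2d2* (22.3 ± 14.01 and 68.6 ± 41.6 CPM), *Ddr2* (10.3 ± 5.27 and 31.7 ± 17.6 CPM) and *Trim56* (10.3 ± 8.34 and 39.9 ± 21.8 CPM) did. Of the 541 genes called higher with the block, 149 did not overlap, beside 228 of all 17038 tested genes that were higher without overlap (1.34%). These 541 were chosen on the same libraries, and in the same fit 123 of them differed from apoE3 and 233 from apoE2. Their median log2FC in that fit was 0.90 with apoE4, 0.75 with apoE3 and 0.28 with apoE2, each against the same control libraries. With apoE3 the block fit called 1354 genes higher than the control, more than the 541 with apoE4.

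Apart from the lists taken from the study, the largest number of members called with the block was in the Hippo pathway, which restrains growth through YAP and TEAD. Of 27 tested members 0 were called without and 11 with the block, beside 3.18% of all tested genes with the block. As a share of its members, the count was higher among HIPK and protein kinase D genes (3 of 7) and astrocyte markers (4 of 9). The study names *Hipk2* and *Prkd3*, and *Ptpn14* and *Tead1* of the Hippo list, for apoE4 on these same samples. The counts of both lists are therefore not independent of that choice. For the Hippo genes the median log2FC was 0.54, beside 0.52 with apoE3 and 0.17 with apoE2. The 11 were *Ptpn14*, *Amotl1*, *Ajuba*, *Ankrd1*, *Mob1a*, *Axl*, *Tead4*, *Amotl2*, *Wwtr1*, *Tead1* and *Tead2*. *Ankrd1*, a YAP target, had the highest change, from 0.0532 ± 0.0388 to 0.858 ± 0.478 CPM. *Yap1* (16.9 ± 8.35 and 24.6 ± 13.6 CPM) and *Lats2* (83.7 ± 24.4 and 87.2 ± 16.1 CPM) were not called. Of 7 HIPK and protein kinase D genes 3 were called with the block, *Hipk2*, *Prkd3* and *Hipk1*. Of 22 p53 target and apoptosis genes these were *Zmat3*, *Bmf* and *Fas*, and of 24 ERK feedback genes *Dusp16*, *Cbl* and *Dusp5*. None of the members of these 3 lists was called without the block.

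Regulators of neuronal identity and of DNA methylation also had members called with the block. Of 18 REST, PTBP and CTDSP genes, 3 were called with the block and 0 without, where 3.18% of all tested genes were called higher with the block, at a median log2FC of 0.02. *Rest*, the repressor of neuronal genes in other cells, held 10.8, 4.46, 7.01 and 16.01 CPM in the control and 32.1, 9.31, 14.6 and 35.9 CPM with apoE4. The groups overlapped, the log2FC was 1.26 (SE 0.63, edgeR adjusted p = 1.00, with the block 0.000932), and it was 1.03 with apoE3. Of 16 DNA methylation genes, 4 were called with the block, beside the same 3.18%, and 0 without. *Tet3*, which oxidizes methylcytosine, was at 73.2, 70.3, 56.1 and 54.9 CPM in the control and 173, 93.2, 113 and 130.1 CPM with apoE4, without overlap (edgeR adjusted p = 0.0525, with the block 0.00545). *Tdg*, the glycosylase that removes its products, was at 4.87 ± 0.335 and 8.06 ± 1.38 CPM and also did not overlap. *Uhrf1* was also called with the block.

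The factors and genes that the study names for apoE4 were chosen on these same samples, so their direction is not independent evidence. Some are also members of the lists above, *Ets1*, *Slc7a11*, *Rmi2* and *Rest* among them, so the counts of those lists are not independent either. Of 20 such transcription factors 15 were tested, 4 were called (*Mafg*, *Elk4*, *E2f2* and *Elf4*) and 15 with the block, and the median log2FC was 1.54 with apoE4, 1.09 with apoE3 and 0.25 with apoE2. Of 14 other such genes 11 were tested, 1 was called (*Igf2bp1*) and 9 with the block. *Vdr*, the vitamin D receptor, had a log2FC of 2.28 with apoE4 and 2.60 with apoE3. Among members that the filter removed, *Pax3* had 0 reads in the control and 16 with apoE4, *Hoxa3* 1 and 20, *Hmga2* 9 and 28, and *Gpr39* 1 and 12. *Creb3l3* went the other way, with 47 and 16 reads.

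Genes of lipid and lipoprotein handling had no call without the block, where 0.194% of all tested genes were called higher. Of 24 genes of cholesterol synthesis and uptake none was called by either fit, 20 lay below 0, and the median log2FC was -0.26, beside 0.16 with apoE3 and -0.24 with apoE2. Of 15 LXR targets 2 were called with the block, beside 3.18% of all tested genes called higher with it. They were *Abca1* (143 ± 69.98 and 272 ± 139 CPM), the efflux pump that lipidates apoE, and *Srebf1*. Their log2FC values were 0.93 and 0.74 with apoE4 and 0.90 and 0.86 with apoE3. Of 20 genes of the LDL receptor family and lipoprotein uptake 2 were called with the block, beside the same 3.18%, and *Lrp6*, a co-receptor of Wnt signaling, was among them. *Lrp1* was at 376 ± 68.9 and 527 ± 136 CPM and was not called.

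None of the listed genes of the synapse was called by either fit, where 0.194% of all tested genes were called higher without the block and 3.18% with it. This held for 16 NMDA, AMPA and kainate receptor subunits (median log2FC -0.03), 15 genes of GABA-A receptors and GABA synthesis (-0.16), 25 presynaptic (0.01) and 25 postsynaptic genes (-0.00064), and 10 neuron markers (-0.07). With apoE3 these medians were -0.20, -0.34, -0.16, -0.23 and -0.20. At those shares lists of this size would hold few calls, so the lack of calls says little. Outside the lists *Synpr*, a gene of synaptic vesicles, was called lower with the block (137 ± 32.3 CPM in the control and 98.2 ± 29.8 CPM with apoE4). *Dlg4*, which encodes PSD-95, was at 343 ± 64.0 CPM in the control and 338 ± 109 CPM with apoE4, *Grin1* at 153 ± 31.2 and 159 ± 74.4 CPM, and *Syp* at 536 ± 95.3 and 522 ± 179 CPM. Of 20 immediate early genes *Fosl2* alone was called, with the block. Among 78 cytosolic ribosomal protein genes 1 was called with the block, and the median was 0.00. Among 52 histone genes 1 was called and 2 with the block, close to the 3.18% of all tested genes, among 21 genes of the integrated stress response 0 and 1 (*Ern1*), and among 27 genes of glycerolipid turnover and 10 mitochondrially encoded subunits 0 and 0.

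Markers of glia and other non-neuronal cells mostly had a positive log2FC. Their calls with the block stand beside 3.18% of all tested genes called higher with it. Of 9 tested astrocyte markers all lay above 0, the median log2FC was 0.68 with apoE4, 0.82 with apoE3 and 0.27 with apoE2, and *Gfap*, *Aqp4*, *Gja1* and *Sox9* were called with the block. *Gfap*, the astrocyte filament, was at 474, 189, 640.1 and 1287 CPM in the control and 1280.0, 299.9, 1228 and 2489 CPM with apoE4, higher in 4 of 4 pairs with overlapping groups. The fibroblast and meningeal markers had a median of 0.75 (0.85 with apoE3), with *Fn1* and *Col1a2* called with the block, and summed to 26.7 to 201 CPM in the control and 34.8 to 341 CPM with apoE4. Oligodendrocyte lineage markers summed to 125 to 517 and 128 to 792 CPM, microglia markers to 15.3 to 61.8 and 21.0 to 74.8 CPM, and endothelial and mural markers to 16.3 to 149 and 15.7 to 256 CPM. Their median log2FC values were 0.49, 0.19 and 0.73, with 9 of 10, 8 of 10 and 6 of 7 tested members above 0, and *Cspg4* of the oligodendrocyte lineage was called with the block. All 9 tested markers of dividing progenitors lay above 0, with a median of 0.68, and *Vim* and *Nes* were called with the block. None of the listed markers was at 0 throughout a group. The part of these cells in the genes called with the block was not tested. Among the 33 genes called without it there is no member of the 7 marker lists. As 0.194% of all tested genes were called, lists of this size would hold few members or none.

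**Figure D4:**
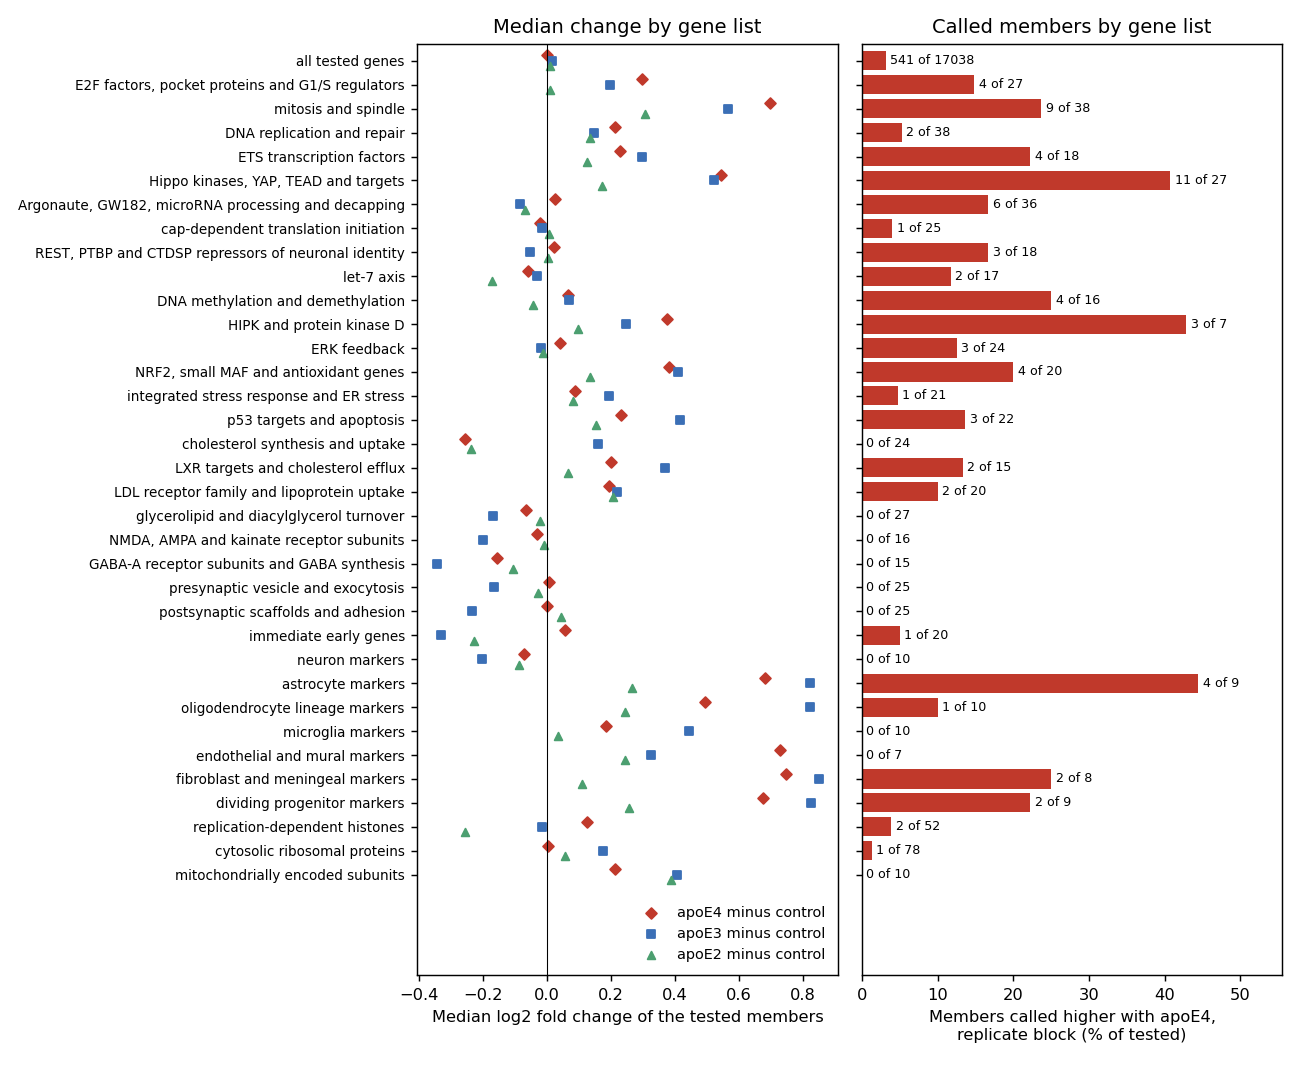
Gene lists in the comparison of apoE4 with the control. Left, median log2 fold change of the tested members with apoE4, apoE3 and apoE2, each against the same control libraries. Right, percentage of tested members called higher with apoE4 with the replicate block, with the counts, where 541 of 17038 genes are the background.

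Few genes were lower with apoE4. Ranked by p, the leading gene of those lower by 2-fold or more was *Gm13050*, a processed pseudogene, at 7.18, 8.001, 7.53 and 6.64 CPM in the control and 2.57, 2.96, 3.59 and 3.15 CPM with apoE4. The groups were apart, with a log2FC of -1.26 (SE 0.28, edgeR adjusted p = 0.119, with the block 0.00749). *Tdo2*, which opens the kynurenine pathway of tryptophan, was at 2.32, 1.97, 1.81 and 2.46 CPM and at 0.813, 1.11, 1.22 and 1.07 CPM, with a log2FC of -1.01 (SE 0.25, edgeR adjusted p = 0.213, with the block 0.0422). *Aadat*, a later enzyme of that pathway, was at 0.642 ± 0.464 and 0.235 ± 0.0374 CPM with overlapping groups and was not called by either fit. The first 10 of this ranking also held *Gm13841*, *Gm26315*, *RP23-74O12.7*, *Gm10778*, *Gm23973*, *Gm2606* and *Gm5711*, among them pseudogenes and small RNAs, and none of these 7 was called by either fit. The 22 genes called lower with the block had a log2FC between -1.27 and -0.28 in that fit, were lower in 4 of 4 pairs, as 11.3% of all tested genes were, and in 4 of them every apoE4 library lay below every control library, as in 0.575% of all tested genes. They too were chosen on these libraries, so the agreement of pairs follows largely from the choice. Chosen after their values were seen, *Calb1*, the calcium buffer of granule cells and interneurons, held 158, 107, 176 and 97.4 CPM in the control and 76.1, 84.0, 102 and 44.5 CPM with apoE4, and *Frzb*, a secreted Wnt antagonist, 13.7 ± 2.04 and 9.35 ± 1.43 CPM.

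The 33 genes had long 3′UTRs, a property the test did not use. Among 27 of them with an annotated 3′UTR the median length of the longest was 4750 bases (quartiles 2908.5 and 5981.5), beside 1208.5 bases over 14286 tested genes with one. In 23 of the 27 it fell in the longest quartile of all tested genes, from 2330 bases upward, and the exceptions were *Mfsd4a*, *Rnf41*, *Otud3* and *Hist1h4m*. Those of *Ago2* and *Ino80d* measured 11064 and 10182 bases. By quartile of length, 2, 0, 2 and 23 genes were called, or 0.0560, 0, 0.0560 and 0.644% of the genes. The median log2FC of the quartiles differed little, from 0.00 in the shortest to 0.03 in the longest, and the genes with long 3′UTRs as a whole stayed near 0. For genes called higher with the block the median length was 2316.5 bases, for those called lower 1559 bases, and for genes called higher with apoE3 or apoE2 with the block 1274 and 1614 bases. The whole transcripts of the 27 were longer too, 3′UTR included, with a median of 6088 bases beside 3477.5 bases in all. The median GC content of the transcripts was 49.2% in the 27 and 49.8% in all. With offsets for gene length and GC content, 34 genes were called, 28 of the 33 among them.

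Matches to microRNA seeds were counted in the longest 3′UTR of each gene. Of 14 microRNAs with a sequence, let-7 stood highest in the ratio of matches per kilobase in the called genes to that in all tested genes. All 9 members of the mouse let-7 family in RefSeq's table (GRCm38.p6) carry the same seed, bases 2 to 8, shown in capitals in 4 of them because the matches turn on it:

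let-7a-5p: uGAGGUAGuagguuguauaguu

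let-7e-5p: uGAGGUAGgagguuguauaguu

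let-7i-5p: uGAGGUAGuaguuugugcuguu

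miR-98-5p: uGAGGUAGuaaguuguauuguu

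The transcript stretch that pairs with this seed reads CTACCTC. It occurred 28 times in 15 of the 27 called genes, or 0.211 times per kilobase, beside 0.0712 per kilobase in all tested genes, of which 10.5% held at least 1. The ratio was 2.97, and for the other microRNAs it ran from 0.398 (miR-26a-5p) to 1.55 (miR-17-5p), with 1.55 for miR-125b-5p and 1.49 for miR-29a-3p. In genes called higher with the block but not without it the density was 0.0641 per kilobase, below that of all genes. Of 1398 different seeds in the table, 196 had at least 20 matches in the called genes, and among these let-7 had the highest ratio. With no such minimum, 13 seeds, that of let-7 included, had a ratio at least as high.

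*Igf2bp1* held 4 matches, and *Hif1an*, *Ago2*, *Zc3hav1l* and *Zfp652* 3 each. The sites of *Igf2bp1*, *Zc3hav1l* and *Hif1an* are given 5′ to 3′ as in the transcript, from GENCODE M21 transcripts on GRCm38, with the seed match in capitals and 1 base after it:

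Igf2bp1 site 1, chr11:95961778-95961799, minus strand: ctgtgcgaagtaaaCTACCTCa

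Igf2bp1 site 2, chr11:95959357-95959378, minus strand: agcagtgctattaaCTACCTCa

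Igf2bp1 site 3, chr11:95958763-95958784, minus strand: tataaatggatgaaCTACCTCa

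Igf2bp1 site 4, chr11:95958140-95958161, minus strand: cttttggttttaatCTACCTCt

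Zc3hav1l site 1, chr6:38292883-38292904, minus strand: ggcaactgtaatacCTACCTCa

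Zc3hav1l site 2, chr6:38292199-38292220, minus strand: ctgctcggaggtttCTACCTCa

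Zc3hav1l site 3, chr6:38290914-38290935, minus strand: taggcaagtgtgctCTACCTCt

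Hif1an site 1, chr19:44573354-44573375, plus strand: atgctgttggttctCTACCTCa

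Hif1an site 2, chr19:44574925-44574946, plus strand: ccttggtaagttccCTACCTCt

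Hif1an site 3, chr19:44576163-44576184, plus strand: gggtttgaaaatatCTACCTCa

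A match of these letters is a description and not a shown site of pairing, and microRNA levels were not measured.

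Counted the other way, 5 of the 24 tested genes with 3 or more matches were called (20.8%), 2 of 163 with 2 matches (1.23%), 8 of 1315 with 1 match (0.608%) and 12 of 12784 without a match (0.0939%). The 5 were the genes just named, at log2FC values of 5.83, 0.74, 1.38, 2.16 and 0.92. The median 3′UTR length also rose along these classes, from 1095 bases without a match to 4682.5 bases with 3 or more. Within the longest quartile of 3′UTRs, 7 of 141 genes with 2 or more matches were called (4.96%), 7 of 632 with 1 match (1.11%) and 9 of 2797 without one (0.322%). The median length still rose within this quartile, from 3290 bases without a match to 3795 with 1 and 4547 with 2 or more, so this split does not hold length constant. The median log2FC over these 3 classes was 0.02, 0.04 and 0.03, close to each other. Of the 24 genes, 9 had a negative log2FC and 15 a positive one. *Zbtb37* (4 matches) was at 21.5 ± 3.91 and 40.3 ± 13.6 CPM and was called with the block. Chosen after their values were seen, *Nr6a1* (8 matches) was at 8.15 ± 2.69 and 7.47 ± 1.69 CPM and *Trim71* (4 matches), a classical let-7 target, at 6.28 ± 1.38 and 4.54 ± 1.78 CPM, and neither was called. In the list of 17 tested genes of the let-7 axis, 1 was called (*Igf2bp1*) and 2 with the block (also *Plagl2*, at 2.74 ± 0.709 and 6.23 ± 1.95 CPM), beside 0.194% and 3.18% of all tested genes. The median log2FC of the list was -0.06. *Lin28b*, which blocks let-7 maturation, had 36 reads in the control and 28 with apoE4, and *Lin28a* 1 and 2.

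**Figure D5:**
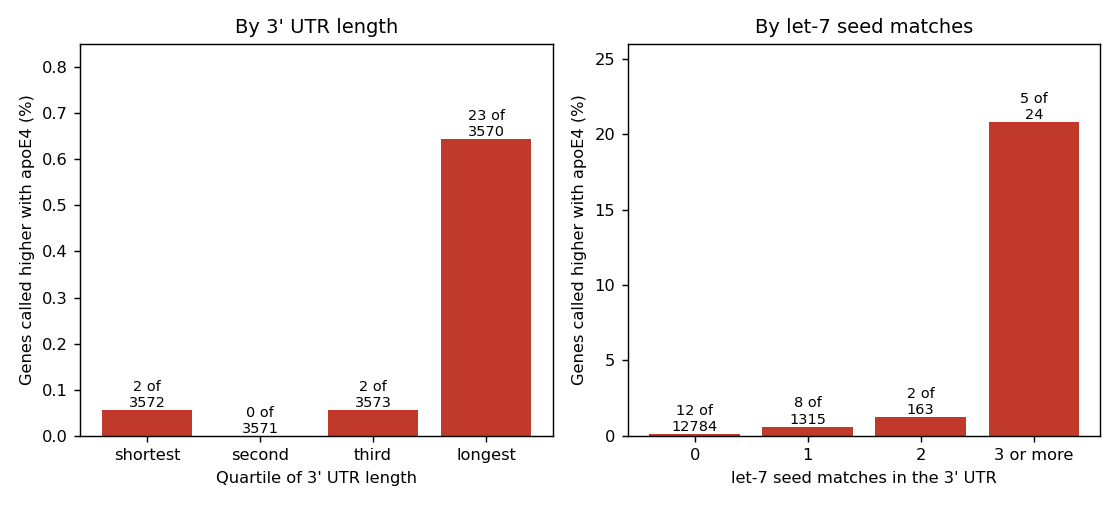
Percentage of tested genes called higher with apoE4 by quartile of 3′UTR length (left) and by the number of let-7 seed matches in the 3′UTR (right), with the counts on the bars. The share is 0.644% in the longest quartile and 20.8% with 3 or more matches.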

How the data were processed

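The authors aligned reads of rRNA-depleted libraries to the mouse genome mm10 with STAR and counted them with HTSeq, and the deposited values are raw counts per gene symbol. The annotation release and the strand setting are not given in the sources used here. HTSeq's rows for reads on no single gene (38.4 to 73.7% of a library) entered neither library sizes nor tests. The AraC concentration differs between the study's methods and the labels and is not printed.

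Counts of all 16 libraries were fitted with edgeR 4.0.16 (R 4.3.3, TMM scaling, filterByExpr with a minimum count of 10, quasi-likelihood test, 1 coefficient per group) and p-values were adjusted by Benjamini-Hochberg over 17038 genes. Samples were grouped by their labels. Libraries sharing a number deviated together (r of 0.529 to 0.768 for apoE4 and control with the same number, -0.699 to 0.313 with different numbers), and the first principal component lay to 89.4% between numbers, so a fit with the number as a block is given where it changes a call. The pairing is read from the data, as the labels state no shared culture. Replicates were not duplicates (chi-square per degree of freedom of 42.4 or more).

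Other fits used DESeq2 1.42.0, other filters, scalings and offsets for length and GC content, and each library left out in turn. Simulated counts of 16821 genes were drawn with the fitted effects of the replicate number, which is the model of the block fit. An advantage of that fit was thus set in advance, and the simulation cannot tell which fit suits the real data. For apoE4 against control, the fit without the block recovered 35.7% of 2-fold and 61.9% of 4-fold changes, and with it 79.6 and 97.9%. The fit without the block called 0 unchanged genes, and the fit with the block 10. Positions and 3′UTRs are from GENCODE M21, which matched 97.2% of symbols. MicroRNA sequences are from RefSeq. miR-124-3p had no entry.

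By rule, the genes to name were all those at an adjusted p under 0.05, the 10 with the smallest p among those at least 2-fold lower, the 10 with the smallest p in the block fit among those changed at least 2-fold, up to 4 members of each list with the smallest p, and the genes the study names. Of the last 2 kinds only a part is printed, the rest being given by counts. Other members are named as called with the block or as contrasts within a family. A few genes that enter the counts are not reported here by name. Members, lists and microRNAs were chosen with earlier results of these data known.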

Additional observations from a re-analysis of the deposited data

Results flagged for a closer look

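Of the 33 genes called higher with apoE4, 20 also differed between apoE4 and apoE3 and 30 between apoE4 and apoE2 in the direct edgeR contrasts at an adjusted p under 0.05, which test the difference between the media directly. The count against apoE3 was 0 without apoE3 replicate 1 or 2, and the count against apoE2 was 12 without apoE2 replicate 1 and 10 without apoE2 replicate 4.

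In 92 groups of 4 libraries, 4 had a library far from the others by Dixon's ratio of the outer gap to the range, above its critical value, and chance gives about 1 in 20. *Hif1an* (ratio 0.97) and *Ino80d* (ratio 0.946) were highest in control replicate 1, at 34.9 and 41.8 CPM, which moves the control mean toward the apoE4 libraries. *Mir7053* was lowest in apoE4 replicate 2, at 0.484 CPM (ratio 0.878). The summed endothelial and mural markers were highest in control replicate 4, at 149 CPM (ratio 0.834).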

How the results depend on the processing

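None of the named genes reversed a call under the 26 alternatives. DESeq2 size factors (34 higher), no low-count filter (23) and the filter of 1 CPM in 8 libraries (28) kept the count of 33 within 1.5 times. All 33 genes stayed above 0 wherever they were tested, and 12 kept their call in each of the 16 fits without a library. Every one of the 33 lost it in the fit of only the groups compared without the block, which called 0 higher and 0 lower genes and left 0 that differ from apoE3 and 0 from apoE2. Calls of higher and lower genes were 88 and 3 with DESeq2, 541 and 22 with the replicate block, 858 and 76 with the block on only the groups compared, 828 and 134 with the block in DESeq2, and 385 and 106 with the block and offsets for length and GC content. Called genes that differed from apoE3 and from apoE2 were 46 and 74, 125 and 240, 164 and 155, 210 and 381, and 101 and 205 under the same alternatives. At the 2-fold criterion the counts of 178 higher and 18 lower genes became 472 and 255 without a filter, 104 and 6 with the strict filter, 391 and 35 with the block, 369 and 41 with the block in DESeq2, and 323 and 44 with the block and offsets. They were 320 higher with the block on only the groups compared, and 11 lower on those groups without it. Without single libraries the ranges were 15 to 63 higher and 0 to 1 lower genes, 125 to 345 and 18 to 51 at the 2-fold criterion, 0 to 33 that differed from apoE3 and 10 to 51 from apoE2. The cause of these shifts was not tested. Genes such as *Mir7053*, *Hist1h4m*, *Igf2bp1* and *Elf4* rest on at most 14 control reads in all, and their fold changes depend on few counts. They passed the low-count filter largely through the apoE4 libraries and could hardly have been called lower. Members such as *Hist1h4m*, *Zbtb34*, *Edem1*, *Xpo4* and *Elf4* kept their call in at most 5 of the 16 fits without a library.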
